A study of Mus musculus with 9 samples.

Results

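Integrin and laminin subunits were followed in messenger RNA from the renal cortex of sham-operated mice and of mice 14 days after bilateral ischemia-reperfusion injury (bIRI). The members are the protein-coding genes whose symbols begin with Itga or Itgb and a subunit number or letter, or with Lama, Lamb or Lamc and a number. The binding proteins Itgb1bp and Itgb3bp and the integrin-like Itgbl1 were left out. Reported here are 37 of the 34669 genes in the table, 27 of them integrin subunits and 10 laminin chains, and each of the 37 had a value in every library. Their order below follows what the subunits bind.

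Male wild-type (WT) C57BL/6 mice, 10 weeks old, made up 3 groups of 3 libraries. In the vehicle and TJ0113 groups the pedicles of both kidneys were clamped for 30 min. These mice were gavaged every day, starting 3 days ahead of surgery, with vehicle or with the compound TJ0113. The sham group had the operation without clamping; whether it was gavaged and on which day it was killed are not stated in the sources used here. Clamping, gavage and day cannot be told apart in differences from sham. The sample labels spell the compound TJ013 and the series text TJ0113, and they were read as the same. The labels number the libraries of a group but do not say that each came from its own mouse, so p-values measure only the spread between these libraries, which may be technical. Libraries 1, 2 and 3 of a group are given in that order throughout.

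Integrins are receptors of the cell surface, each made of an alpha and a beta subunit, which hold cells to the matrix or to other cells and signal through talin, kindlin and focal adhesion kinase. Laminins are cross-shaped trimers of an alpha, a beta and a gamma chain, and with type IV collagen, nidogen and perlecan they build the basement membranes under tubules, glomeruli and vessels. In the kidney the tubular epithelium rests on laminins held mainly by alpha3 and alpha6 integrins, integrins that contain alphav bind the RGD sequence in fibronectin and in the latent form of TGF-beta, and beta2 integrins belong to leukocytes.

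The table gave FPKM, fragments scaled by exon length and library total, for libraries estimated at 31.2 to 42.7 M (mega) fragments. Differences between groups come from limma, run on log2(FPKM + 1) in the 15453 genes whose mean reached 0.5 FPKM, and "rose", "fell" and "called" refer to a Benjamini-Hochberg adjusted p under 0.05 over all of them. Log2 differences are on that scale, which understates the change of low genes, and are given relative to the median gene, whose own difference was 0.30 between vehicle and sham, -0.03 between TJ0113 and vehicle and 0.26 between TJ0113 and sham. The p-values belong to the difference before that subtraction. The vehicle libraries were spread widely on the first principal component, which held 75.5 percent of the variance. Vehicle library 2 lay nearest to sham, at -8.03, against 30.8 and 70.6 for vehicle libraries 1 and 3. Sham lay at -61.7 to -52.5. Summed proximal tubule markers ran from 2050 to 2360 FPKM in sham, 797 to 1700 with vehicle and 1030 to 1750 with TJ0113, and 4 of 6 markers fell between vehicle and sham. Summed tubular injury markers ran from 58.6 to 68.2, 268 to 740 and 214 to 561 FPKM. These are bulk libraries, so fewer cells of a type and less RNA per cell cannot be told apart, and the part of cell composition in the differences below was not tested.

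In sham cortex Itgb1 (ENSMUSG00000025809), the beta subunit shared by most alpha subunits, had the highest level of the 37, at 53.5 ± 1.73 FPKM (SD, n = 3). Itgb5 followed at 26.5 ± 3.07, then Lamb1 at 16.2 ± 1.58, Itgb6 at 15.3 ± 1.98, Itgb8 at 13.8 ± 0.743, Lama5 at 13.3 ± 1.07 and Itgav at 9.47 to 10.3 FPKM. Lamb1, Itgb6, Itgb8 and Lama5 are neighbours in this order whose ranges overlap. Leukocyte integrins were low in sham, apart from Itgb2l, a gene named for its likeness to Itgb2, at 3.34 ± 0.193 FPKM. The collagen-binding subunits Itga2 and Itga11 and the leukocyte subunit Itgad lay below the filter and were not tested. Itgad stood on 0.5 to 6.5 fragments a library, and no difference was detectable at that depth.

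**Figure D1:**
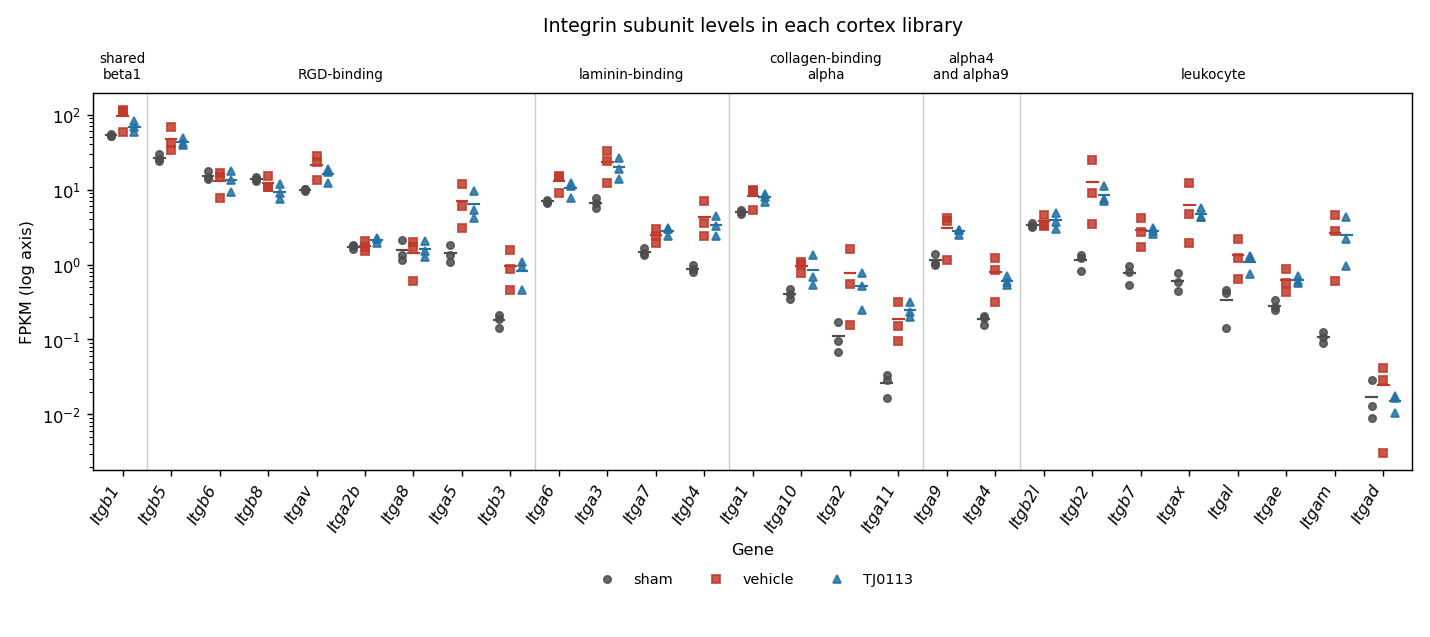
FPKM (log axis) of the 27 integrin subunits in each of the 9 libraries, grouped by what they bind; points are libraries and short lines are group means. Itgb1 is the highest in every library, and the vehicle and TJ0113 points of Itgb2, Itgam and Itgax lie above those of sham.

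The first comparison set injured cortex with vehicle against sham cortex. Of the 34 tested members 24 rose, 1 fell and 9 were not called, so 70.6 percent rose, against 31.3 percent of all genes tested, while 5.42 percent of all genes fell. Among the integrins 18 of 24 rose and none fell; among the laminin chains 6 of 10 rose and Lama3 fell. The 3 vehicle libraries lay above the 3 sham libraries in 23 of 34 members, against 45.9 percent of all genes. The median log2 difference of the members was 0.46, where that of all genes is 0 by construction. The 95% interval of the relative difference lay above 0 for 12 of the 24 that rose. They were Itga3, Itgb4, Itga5, Itgav, Itgam, Itgax, Itgb2, Itgb7, Lama5, Lamb1, Lamb2 and Lamc1. The split depended on scaling: 12 members rose and 2 fell of 32 with median-ratio size factors, and 11 rose and 2 fell of 34 with quantile normalization, Lama1 joining Lama3 among those that fell. The share of all genes called higher was then 15.3 and 13.2 percent. With no filter on low values 7 members were called, and 7.17 percent of all genes were called higher.

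The beta1 subunit rose. Itgb1 was measured at 52.4, 52.5 and 55.5 FPKM in sham, 111, 58.7 and 114 FPKM with vehicle and 81.5, 57.7 and 67.6 FPKM with TJ0113. Each vehicle library was above each sham library, with vehicle library 2 only just so. The relative log2 difference between vehicle and sham was 0.45 ± 0.25 (SE; limma adjusted p = 0.0421). It was not called with median-ratio scaling (adjusted p = 0.266) or quantile normalization (adjusted p = 0.0706), nor when sham library 1, 2 or 3, vehicle library 1 or 3, or TJ0113 library 1 or 3 was left out (adjusted p 0.0525 to 0.134).

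All 4 laminin-binding subunits rose, where 31.3 percent of all genes tested did. Itga3, which with beta1 holds tubular cells and podocytes to laminin, was measured at 7.68, 5.74 and 6.62 FPKM in sham, 24, 12.1 and 33.1 with vehicle and 18.7, 14.0 and 26.6 with TJ0113. Every injured library exceeded every sham library, and the difference between vehicle and sham was 1.25 ± 0.33 (SE; limma adjusted p = 0.0132). Itgb4, the partner of alpha6 in hemidesmosomes, stood at 0.971, 0.860 and 0.799 FPKM in sham, 3.55, 2.40 and 7.08 with vehicle and 3.24, 2.43 and 4.46 with TJ0113. Vehicle library 3 was its highest, and the difference was 1.12 ± 0.29 (limma adjusted p = 0.0121). Itga6, which pairs with beta1 or beta4, was at 6.65, 6.88 and 7.28 FPKM in sham, 15.1, 9.0 and 14.5 with vehicle and 11.2, 7.76 and 12.1 with TJ0113. Its difference was smaller, 0.48 ± 0.21 (limma adjusted p = 0.0237). Itga7, best known as the laminin receptor of muscle, was at 1.34, 1.65 and 1.43 FPKM in sham, 1.91, 2.41 and 3.02 with vehicle and 3.04, 2.40 and 3.01 with TJ0113, with a difference of 0.17 ± 0.15 (limma adjusted p = 0.0371). Itga3 and Itgb4 remained called under both other scalings, and Itga6 and Itga7 did not. None of the 4 calls was kept without sham library 2 or without sham library 3, while Itga3 and Itgb4 were kept without each other library in turn (adjusted p of lost calls 0.0505 to 0.111).

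Of the 8 RGD-binding subunits 4 rose (50 percent, against 31.3 percent of all genes tested). Itgav, the alpha subunit common to the receptors that free latent TGF-beta, was at 10.3, 10.3 and 9.47 FPKM in sham, 27.8, 13.5 and 23.1 with vehicle and 18.6, 12.3 and 16.9 with TJ0113. Its vehicle and sham libraries did not overlap, and the difference was 0.68 ± 0.25 (SE; limma adjusted p = 0.0192). Itga5, the classical fibronectin receptor subunit, rose more, by 1.27 ± 0.39 (limma adjusted p = 0.0191). It was measured at 1.81, 1.35 and 1.09 FPKM in sham, 6.00, 3.05 and 11.8 with vehicle and 5.27, 4.22 and 9.57 with TJ0113, and the third library was the highest in each injured group. Itgb5, a vitronectin receptor subunit, stood at 30.0, 25.6 and 24.02 FPKM in sham, 41.3, 33.2 and 68.2 with vehicle and 41.7, 48.1 and 39.6 with TJ0113, a difference of 0.46 ± 0.24 (limma adjusted p = 0.0349). Itgb3, shared by platelets and other cells, was low, at 0.210, 0.187 and 0.144 FPKM in sham, 0.860, 0.460 and 1.55 with vehicle and 0.932, 0.463 and 1.08 with TJ0113. Its difference was 0.40 ± 0.21 (limma adjusted p = 0.0316). Summed platelet markers ran from 0.774 to 1.21 FPKM in sham and 2.33 to 12.6 in the vehicle group, mostly Pf4 in the latter. Sham and vehicle means were 0.218 and 0.552 FPKM for Ppbp, 0.0534 and 0.103 for Gp9 and 0.204 and 0.278 for Gp1ba, and Gp1bb was at or near 0 in all groups; the part of platelets was not tested.

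Itgb6 and Itgb8, beta partners of alphav, did not rise with Itgav, while its partners Itgb5 and Itgb3 did. Itgb6 was at 13.6, 14.7 and 17.5 FPKM in sham, 16.8, 7.61 and 14.8 with vehicle and 17.9, 9.27 and 13.5 with TJ0113, so the groups overlapped and the second library was the lowest of each injured group. Its difference between vehicle and sham was -0.57 ± 0.29 (SE; limma adjusted p = 0.469). Itgb8 was at 13.9, 14.5 and 13.1 FPKM in sham, 15.3, 10.7 and 10.7 with vehicle and 11.8, 8.97 and 7.43 with TJ0113, and its difference was -0.48 ± 0.18 (limma adjusted p = 0.430). Itga8, the nephronectin receptor subunit of mesenchymal cells, was at 2.13, 1.33 and 1.16 FPKM in sham, 1.72, 0.610 and 1.97 with vehicle and 1.53, 2.06 and 1.25 with TJ0113, with overlapping groups and a difference of -0.39 ± 0.25 (limma adjusted p = 0.776). Itga2b, the platelet fibrinogen receptor subunit, had means of 1.72, 1.76 and 2.13 FPKM in sham, vehicle and TJ0113 and was not called (adjusted p = 0.932). Of the 4 calls, those of Itga5 and Itgb3 held with median-ratio scaling and those of Itga5 and Itgav with quantile normalization. No call was kept without sham library 2, sham library 3 or vehicle library 1, only that of Itga5 without sham library 1 or vehicle library 3, and that of Itgb5 was lost without TJ0113 library 1 (adjusted p of lost calls 0.0501 to 0.111).

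Both tested collagen-binding alpha subunits rose. Itga1, a receptor for collagens I and IV, was at 5.30, 5.0 and 4.65 FPKM in sham, 9.48, 5.36 and 9.80 with vehicle and 8.74, 6.87 and 7.97 with TJ0113. Vehicle library 2 lay just above sham library 1, and the difference was 0.29 ± 0.20 (SE; limma adjusted p = 0.0469). Itga10 was at 0.476, 0.347 and 0.407 FPKM in sham, 1.02, 0.776 and 1.07 with vehicle and 0.526, 0.677 and 1.33 with TJ0113, a difference of 0.18 ± 0.16 (limma adjusted p = 0.0486). The untested Itga2 had means of 0.111, 0.773 and 0.515 FPKM in sham, vehicle and TJ0113, and Itga11, a fibroblast collagen receptor subunit, had means of 0.0266, 0.188 and 0.247 FPKM. Itga4 and Itga9, which bind fibronectin, tenascin or Vcam1, also rose. Itga4 was at 0.196, 0.207 and 0.157 FPKM in sham, 0.844, 0.318 and 1.22 with vehicle and 0.529, 0.580 and 0.702 with TJ0113, with a difference of 0.27 ± 0.18 (limma adjusted p = 0.0356). Itga9 had means of 1.13, 3.05 and 2.77 FPKM, its vehicle and sham ranges overlapped, and its difference was 0.53 ± 0.29 (limma adjusted p = 0.0494). Under median-ratio scaling the calls of Itga1, Itga10 and Itga9 were lost and Itga4 fell below the filter, and all 4 calls were lost with quantile normalization. None of these calls was kept without sham library 1, 2 or 3; Itga1 and Itga9 also lost theirs without vehicle library 1 or 3 and without TJ0113 library 1, 2 or 3, Itga10 without vehicle library 1 or 3 or TJ0113 library 2, and Itga4 without TJ0113 library 1, while it fell below the filter without vehicle library 1 or 3 (adjusted p of lost calls 0.0527 to 0.157). In the GENCODE M21 annotation Itga1 shares 685 exon bases with Gm49395, whose mean was 1.02 FPKM, and Itga10 shares 1739 with Gm42957, at 0.0079 FPKM, so reads of each pair may be split between them. Itga4 overlaps the protein-coding gene Cerkl on the opposite strand, at 0.126 FPKM, by 1124 exon bases, and no source used here states whether the counting used strand.

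Itgb2 and Itgax, both of leukocytes, had the largest differences of the 34 tested members on the log2(FPKM + 1) scale. With a pseudocount of 0.1 that of Itgam was larger than both, at 2.97 against 2.54 and 2.46. Itgb2, the beta2 subunit found on leukocytes, was measured at 1.36, 1.23 and 0.829 FPKM in sham, 9.03, 3.44 and 24.8 with vehicle and 7.39, 7.05 and 11.01 with TJ0113. Every injured library exceeded every sham library. The difference between vehicle and sham was 2.0 ± 0.51 (SE; limma adjusted p = 0.0139). Itgax, its partner on dendritic cells and macrophages, was at 0.780, 0.589 and 0.440 FPKM in sham, 4.77, 1.96 and 12.2 with vehicle and 4.34, 4.30 and 5.68 with TJ0113, a difference of 1.63 ± 0.43 (limma adjusted p = 0.0140). Itgam, its partner on monocytes, macrophages and neutrophils, was at 0.108, 0.124 and 0.0887 FPKM in sham, 2.77, 0.607 and 4.64 with vehicle and 2.19, 0.943 and 4.30 with TJ0113. That is 15.5 to 21.5 fragments in sham against 104.5 to 805.5 in the vehicle group, and the difference was 1.25 ± 0.46 (limma adjusted p = 0.0297). Itgam shares 3450 exon bases with Gm49368 on the same strand, which was listed at a mean of 0.0016 FPKM.

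The lymphocyte subunits moved less. Itgb7, which pairs with alpha4 or alphaE, was at 0.969, 0.796 and 0.540 FPKM in sham, 2.72, 1.72 and 4.17 with vehicle and 2.58, 3.03 and 2.79 with TJ0113, a difference of 0.79 ± 0.22 (SE; limma adjusted p = 0.0112). Itgal was at 0.454, 0.422 and 0.144 FPKM in sham, 1.22, 0.642 and 2.20 with vehicle and 0.737, 1.29 and 1.25 with TJ0113, a difference of 0.47 ± 0.24 (limma adjusted p = 0.0335). Itgae, the E-cadherin-binding subunit, had means of 0.282, 0.628 and 0.628 FPKM in sham, vehicle and TJ0113 and was not called (adjusted p = 0.0617), nor was Itgb2l, with means of 3.34, 3.75 and 3.88 FPKM (adjusted p = 0.576). All 5 leukocyte calls held with median-ratio scaling and 4 of them, without Itgal, with quantile normalization. Without sham library 3 none was kept, without sham library 2 only that of Itgb7, and without sham library 1, vehicle library 1 or vehicle library 3 those of Itgam and Itgal were lost (adjusted p of lost calls 0.0509 to 0.113).

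Macrophage markers moved with these genes. Summed over 8 markers they came to 42.8, 33.9 and 30.5 FPKM in sham, 343, 125 and 707 with vehicle and 284, 228 and 436 with TJ0113. Between vehicle and sham 7 of the 8 rose, all but Csf1r. The sum ordered the vehicle libraries as Itgb2, Itgax and Itgam did, with library 2 the lowest and library 3 the highest. This order was not particular to them: the first principal component, Itga3, Itgb4 and Lama5 had it too. Itgav and Itga6 were highest in vehicle library 1. Of 8 T, B and NK cell markers 4 were tested and Cd3d and Cd4 rose; their sum ran from 0.972 to 1.75 FPKM in sham, 2.19 to 7.41 with vehicle and 3.13 to 5.45 with TJ0113, with the B cell marker Ms4a1 at 0.0376 FPKM or less on average. Neutrophil markers summed to 0.605 to 1.55, 3.24 to 25.5 and 3.67 to 35.4 FPKM, mostly S100a9, while Ly6g and Mpo had vehicle means of 0.0250 and 0.0126 FPKM and were at 0 in sham. The part of these cells in the integrin differences was not tested.

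**Figure D2:**
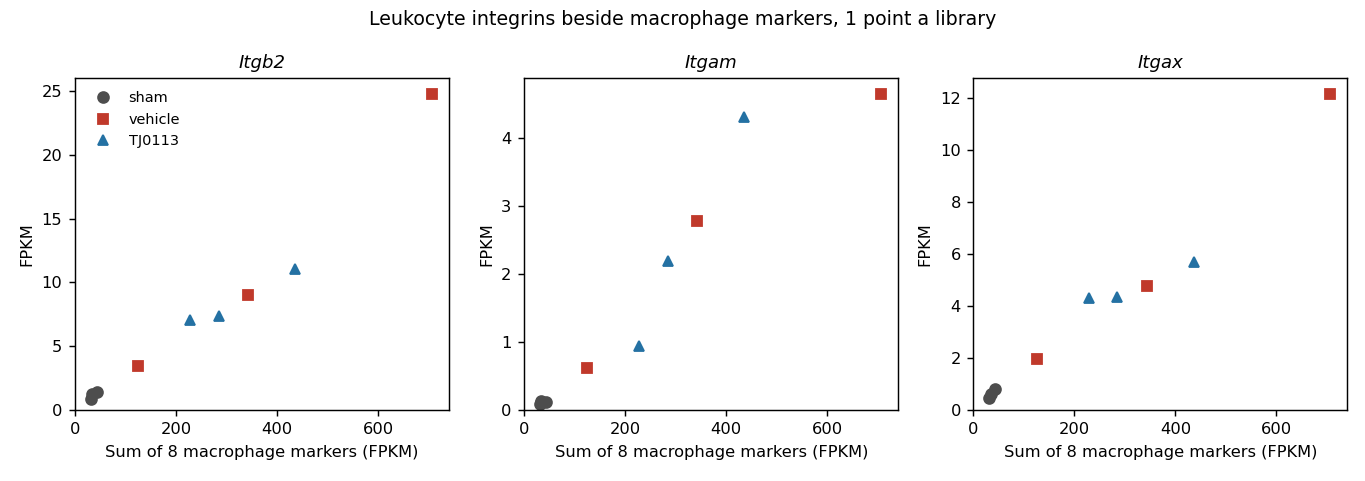
FPKM of Itgb2, Itgam and Itgax against the summed FPKM of 8 macrophage markers, 1 point a library. Sham libraries lie near the origin at sums of 30.5 to 42.8, and vehicle library 3 is the highest on both axes in each panel, at a sum of 707.

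Laminin chains moved in different directions within a class. Lama5 (ENSMUSG00000015647), the alpha chain of mature kidney basement membranes, was measured at 14.4, 12.4 and 12.9 FPKM in sham, 32.8, 29.2 and 60.7 with vehicle and 41.7, 31.0 and 58.9 with TJ0113. Every injured library exceeded every sham library, and the difference between vehicle and sham was 1.19 ± 0.29 (SE; limma adjusted p = 0.0110). Lama3 (ENSMUSG00000024421), an alpha chain of the laminin at epithelial anchoring sites, was at 4.48, 5.41 and 4.57 FPKM in sham, 2.42, 3.07 and 3.67 with vehicle and 3.76, 3.22 and 4.29 with TJ0113. Each injured library was below each sham library, and the difference between vehicle and sham was -0.83 ± 0.15 (limma adjusted p = 0.0282). Lama2, the chain of mesangium and muscle, had means of 0.518, 1.67 and 1.41 FPKM in sham, vehicle and TJ0113, with overlapping vehicle and sham ranges and a difference of 0.47 ± 0.24 (limma adjusted p = 0.0361). Lama1, a chain of early tubular basement membrane, had means of 3.08, 2.57 and 2.85 FPKM and was not called (adjusted p = 0.341), nor was Lama4, a vessel chain, at 0.430, 0.865 and 0.832 FPKM (adjusted p = 0.195). The call of Lama5 was lost without sham library 2 (adjusted p = 0.0501), that of Lama2 under both other scalings and without sham library 1, 2 or 3, vehicle library 1 or 3, or TJ0113 library 1. Lama3 lost its call with equal FPKM sums (adjusted p = 0.0976) and without sham library 1, 2 or 3 or vehicle library 1 (adjusted p of lost laminin alpha calls 0.0501 to 0.117).

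All 3 beta chains rose, where 31.3 percent of all genes tested did. Lamb1, the beta chain of developing and tubular basement membranes, was at 18.0, 14.9 and 15.8 FPKM in sham, 31.2, 21.9 and 33.7 with vehicle and 25.4, 22.4 and 31.0 with TJ0113, a difference of 0.48 ± 0.18 (SE; limma adjusted p = 0.0162). Lamb2, the beta chain of the glomerular basement membrane, was at 9.99, 7.82 and 6.69 FPKM in sham, 16.9, 11.7 and 28.9 with vehicle and 15.1, 20.2 and 23.5 with TJ0113, a difference of 0.76 ± 0.30 (limma adjusted p = 0.0256). For both, every injured library exceeded every sham library. Lamb3 was far lower, at 0.717, 0.551 and 0.485 FPKM in sham, 1.65, 1.01 and 3.74 with vehicle and 1.28, 0.944 and 1.54 with TJ0113, a difference of 0.60 ± 0.27 (limma adjusted p = 0.0331). Only the call of Lamb3 held with median-ratio scaling and only that of Lamb1 with quantile normalization. None was kept without sham library 2 or 3, that of Lamb3 was also lost without sham library 1, and those of Lamb2 and Lamb3 without vehicle library 1 or 3 (adjusted p of lost calls 0.0579 to 0.0989).

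The gamma chain Lamc1, part of most laminins, rose. It was measured at 5.21, 4.38 and 3.97 FPKM in sham, 11.1, 5.81 and 14.9 with vehicle and 8.28, 8.57 and 8.41 with TJ0113, a difference of 0.70 ± 0.26 (SE; limma adjusted p = 0.0221). It kept its call under both other scalings and lost it without sham library 2 or 3 or vehicle library 1 or 3 (adjusted p 0.0579 to 0.0782). Lamc3 had means of 1.60, 1.12 and 1.55 FPKM and was not called (adjusted p = 0.410).

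**Figure D3:**
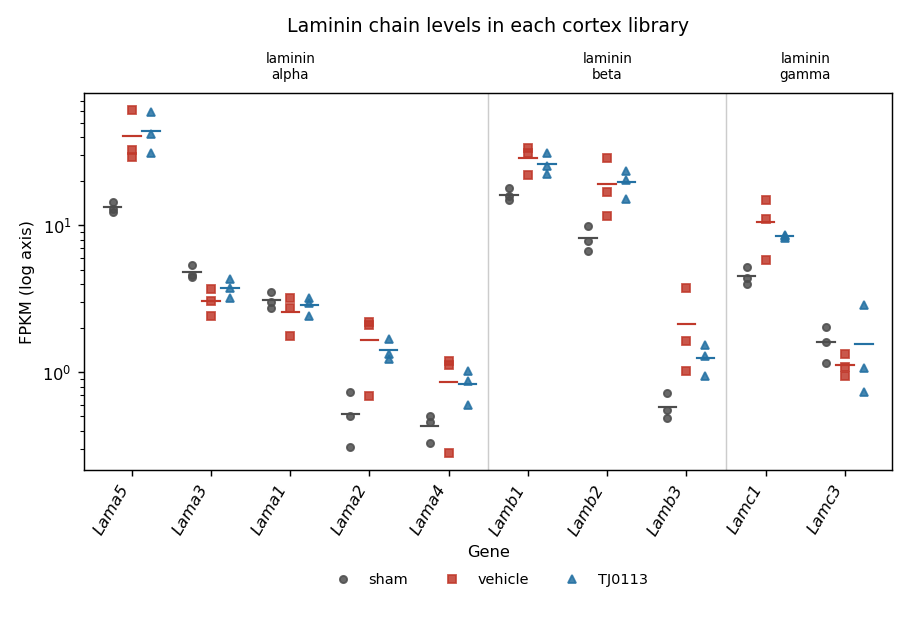
FPKM (log axis) of 10 laminin chains in each of the 9 libraries; points are libraries and short lines are group means. Lama5 lies higher and Lama3 lower in all 6 injured libraries than in the 3 sham libraries.

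FPKM are per length, so the chains of a class can be set against each other within a library, which does not depend on scaling between libraries. No test was run on these shares, and a share also falls where other members of its class rise. Summed laminin alpha chains ran from 21.2 to 22.9 FPKM in sham and 36 to 71 with vehicle, and summed beta integrins from 114 to 117 and 122 to 250. Itgb6, Itgb8 and Lama1 themselves were not called between vehicle and sham, apart from Lama1 under the 2 other scalings. Lama5 made up 63.1, 55.6 and 61.1 percent of the summed FPKM of the alpha chains in sham, 81.5, 81.2 and 85.6 percent with vehicle and 83.0, 79.1 and 85.7 percent with TJ0113. Lama3 went the other way, at 21.8 ± 2.39 percent (SD, n = 3) in sham, 6.57 ± 1.75 with vehicle and 7.31 ± 0.993 with TJ0113, and so did Lama1, at 14.0, 5.50 and 5.56 percent. In both cases the injured and sham libraries did not overlap, vehicle library 2 included. Lamb3 was the smallest share of the beta chains in every library, at 2.32 ± 0.198, 3.96 ± 1.47 and 2.66 ± 0.456 percent. Among beta integrins Itgb1 kept 46.3 ± 1.49, 49.5 ± 4.59 and 44.4 ± 3.23 percent in sham, vehicle and TJ0113. Itgb6 went from 13.2 ± 1.72 to 6.79 ± 1.24 and 8.67 ± 1.95 percent and Itgb8 from 12.0 ± 0.760 to 6.85 ± 2.32 and 6.07 ± 1.06 percent, while Itgb2 went from 0.987 ± 0.239 to 5.73 ± 3.73 and 5.53 ± 1.51 percent. Among alpha integrins Itga3 had 17.6 ± 1.77, 23.8 ± 1.94 and 24.1 ± 2.83 percent and Itgav 26.4 ± 1.37, 23.3 ± 4.54 and 19.8 ± 2.78 percent.

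**Figure D4:**
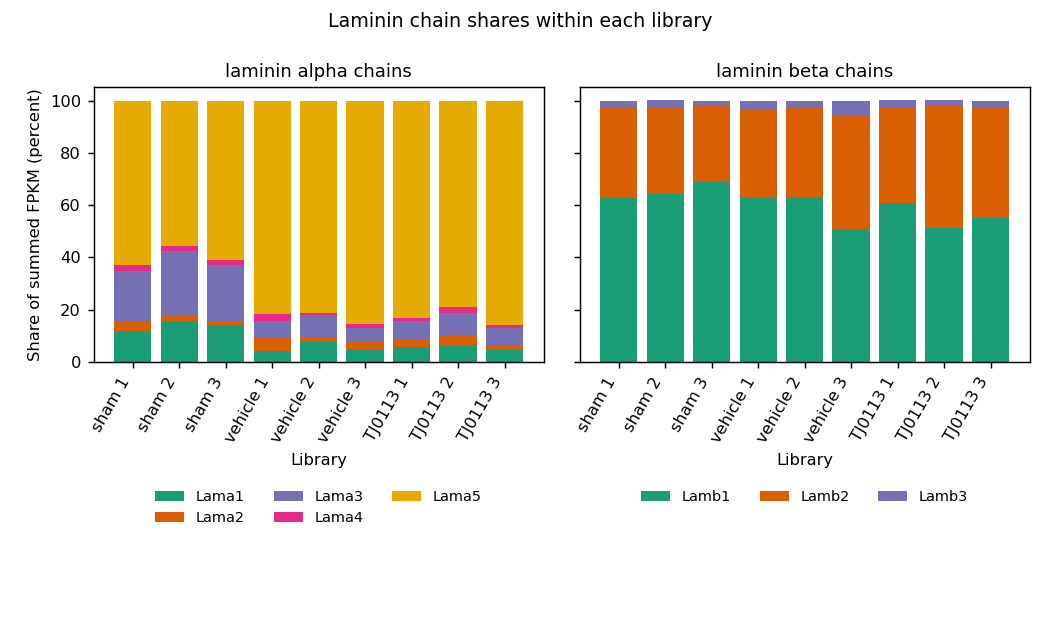
Share of each chain in the summed FPKM (percent) of the laminin alpha and beta chains, 1 stacked bar a library. Lama5 takes 55.6 to 63.1 percent of the alpha chains in sham and 79.1 to 85.7 percent in the injured libraries.

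Promoter sequence was read for all members with a window, whether or not they were called. RefSeq (GRCm38.p6) windows of 300 bases, 250 before and 50 after a start, were found for 24 of the 37 members, 27 windows in all. They were searched on both strands for the AP-1 motif TGANTCA, the PU.1 motif GAGGAA, the SP1 motif GGGCGG and the TEAD motif GGAATG. Matches of the AP-1, PU.1 and SP1 motifs did not overlap each other in these windows, and overlap with TEAD matches was not checked. PU.1, a factor of myeloid cells, had a match in 15 of the 27 windows (55.6 percent), against 28.3 percent of all 32851 windows. AP-1 had one in 3 windows (11.1 percent against 7.81), SP1 in 12 (44.4 against 35.7) and TEAD in 3 (11.1 against 14.7 percent). PU.1 matches lay in the leukocyte subunits Itgam, Itgb7 and Itgb2l, but also in Lama5, Lamb1, Itgb1, Itgav and others, and not in Itgax. A match describes letters and shows neither a bound site nor a cause. Written 5′ to 3′ with the matches in capitals are the windows of the leukocyte subunits Itgam and Itgax. Those of Itga3 and Lama5, a laminin receptor subunit and a laminin chain that rose, follow.
Itgam (chr7:128062390-128062689, plus strand): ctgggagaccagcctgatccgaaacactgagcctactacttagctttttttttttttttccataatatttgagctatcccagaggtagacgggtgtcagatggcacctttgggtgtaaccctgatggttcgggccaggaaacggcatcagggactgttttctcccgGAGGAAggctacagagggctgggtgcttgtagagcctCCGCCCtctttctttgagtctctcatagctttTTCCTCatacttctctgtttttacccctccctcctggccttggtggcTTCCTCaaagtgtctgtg
Itgax (chr7:128129300-128129599, plus strand): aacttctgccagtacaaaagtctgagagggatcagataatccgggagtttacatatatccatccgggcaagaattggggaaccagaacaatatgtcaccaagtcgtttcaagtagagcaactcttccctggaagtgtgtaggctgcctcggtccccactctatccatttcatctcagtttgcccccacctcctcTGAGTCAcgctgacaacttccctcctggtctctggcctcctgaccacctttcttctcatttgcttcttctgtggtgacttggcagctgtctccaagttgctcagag
Itga3 first window (chr11:95076665-95076964, minus strand): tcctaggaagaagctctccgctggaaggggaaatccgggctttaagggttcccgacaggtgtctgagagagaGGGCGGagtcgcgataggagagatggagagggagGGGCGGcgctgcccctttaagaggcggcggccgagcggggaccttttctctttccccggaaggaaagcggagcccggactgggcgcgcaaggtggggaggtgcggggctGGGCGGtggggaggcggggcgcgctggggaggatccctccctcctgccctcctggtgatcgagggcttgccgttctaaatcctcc
Itga3 second window (chr11:95069149-95069448, minus strand): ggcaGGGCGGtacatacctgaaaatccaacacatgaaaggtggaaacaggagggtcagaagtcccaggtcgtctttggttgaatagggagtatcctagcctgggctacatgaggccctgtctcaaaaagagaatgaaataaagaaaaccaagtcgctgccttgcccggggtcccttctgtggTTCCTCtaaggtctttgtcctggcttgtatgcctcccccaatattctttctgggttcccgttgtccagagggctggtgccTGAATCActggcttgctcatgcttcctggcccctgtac
Lama5 (chr2:180225810-180226109, minus strand): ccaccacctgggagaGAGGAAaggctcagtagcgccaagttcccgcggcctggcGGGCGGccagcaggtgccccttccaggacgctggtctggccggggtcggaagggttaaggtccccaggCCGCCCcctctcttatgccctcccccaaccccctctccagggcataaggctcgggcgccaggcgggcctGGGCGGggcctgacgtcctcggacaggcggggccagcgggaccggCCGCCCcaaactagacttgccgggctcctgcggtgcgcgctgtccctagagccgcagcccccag
Itgam carried PU.1 letters at 3 places, beginning at positions -84, -15 and 33 from the start, and an SP1 match at -47. Itgax held an AP-1 match at -56 and none of the other 3 motifs. The 2 windows of Itga3 differed: the first had 3 SP1 matches, at -178, -144 and -35, and the second had an AP-1 match at 13, a PU.1 match at -68 and an SP1 match at -246. Lama5 had 4 SP1 matches, at -196, -128, -59 and -14, and a PU.1 match at -235. These 4 genes were picked for their rise, so that their vehicle and sham groups did not overlap says nothing about the motifs. The vehicle libraries lay above sham in 45.9 percent of all genes.

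The genes that integrins and laminins work with were followed in lists chosen with earlier results of these data known, 84 genes of which 80 were tested. Between vehicle and sham 52 rose and 3 fell (65.0 percent rose), against 31.3 percent of all genes called higher and 5.42 percent called lower. Of the matrix ligands 16 of 18 tested rose (88.9 percent), with a median difference of 2.04. Spp1, the RGD ligand osteopontin, had means of 370 ± 8.03 FPKM in sham and 9160 ± 4360 in the vehicle group (difference 4.20 ± 0.57, SE; limma adjusted p = 0.00529). Fn1, fibronectin, had 1.49 ± 0.281 and 23.8 ± 15.7 FPKM (2.79 ± 0.43; limma adjusted p = 0.00687). Col1a1 and Col3a1, the fibrillar collagens bound by Itga1 and Itga2, differed by 3.79 and 3.72. All 5 mesangial and fibroblast markers rose as well, their sum running from 18.3 to 25.1 FPKM in sham and 37.3 to 143 with vehicle; their part was not tested. Npnt, nephronectin, was not called at 26.9 ± 3.59 and 29.3 ± 6.50 FPKM, like its receptor subunit Itga8. Among cell-surface counter-receptors 3 of 7 rose (42.9 percent): Vcam1, a ligand of Itga4 and Itga9, by 3.90, Icam1, a ligand of beta2 integrins, by 2.04, and F11r by 0.51. Cdh1, the ligand of Itgae, was not called (0.18 ± 0.17; limma adjusted p = 0.0561).

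Basement membrane partners moved in different directions. Of 15 tested, 8 rose (53.3 percent) and 2 fell, against 31.3 and 5.42 percent of all genes. Col4a1, a chain of the general type IV network, had means of 22.2 ± 2.21 FPKM in sham and 80.4 ± 32.6 in the vehicle group, a difference of 1.43 ± 0.26 (SE; limma adjusted p = 0.00753), and Col4a2 differed by 1.30. Col4a3, a chain of the glomerular and distal tubular network, went from 36.0 ± 2.82 to 15.6 ± 3.80 FPKM, a difference of -1.47 ± 0.19 (limma adjusted p = 0.00826), and its partner Col4a4 by -1.04. The other type IV chains, Col4a5 and Col4a6, were not called, at -0.15 ± 0.15 and 0.46 ± 0.27 (limma adjusted p = 0.465 and 0.0514). Summed podocyte markers ran from 36.3 to 59.1 FPKM in sham and 15.1 to 52.9 in the vehicle group, with 1 of 4 called lower; their part was not tested. Col15a1 and Col18a1 differed by 2.67 and 1.62, and Nid1, which links laminin to collagen IV, by 1.2 ± 0.43 (limma adjusted p = 0.0284). Of 28 tested genes of the adhesion machinery 15 rose (53.6 percent) and the talin Tln2 fell. Actn1, Vasp, Zyx and Src, which join or act on actin at adhesions, differed by 1.92, 1.39, 1.19 and 0.70. The core partners Tln1, Fermt2 and Ptk2 were not called, at -0.08 ± 0.16, -0.07 ± 0.17 and -0.01 ± 0.13 (limma adjusted p = 0.308, 0.286 and 0.0998). Ilk, integrin-linked kinase, was listed at 0.0747 FPKM or less in each group mean and was not tested. Exons shared with other genes were looked up for the members only, so this value does not show that Ilk was absent. In the latent TGF-beta list 4 of 6 rose, Tgfb1 by 1.63, Ltbp3 by 1.26, Nrros by 1.33 and Tgfb3 by 0.79, and all 6 of the tetraspanins and Cd47 rose, Cd9 by 1.12 and Cd151, which binds laminin receptors, by 0.63. Without sham library 2 only 23 linked genes were called and without sham library 3 only 26, where 4.75 and 5.67 percent of all genes were called higher.

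The second comparison, TJ0113 against vehicle, asked what the compound changed in injured cortex, and no member was called. Limma called 0 of 34 at an adjusted p under 0.05, as it called 0 percent of all genes tested. At an unadjusted p under 0.05 the count was 0 of 34, against 6 percent of all genes, and in 0 of 34 did the groups lie apart, against 7.35 percent. The median difference of the members was -0.02, with 17 above and 17 below 0. The lowest was that of Itgb1, -0.37 ± 0.25 (SE; 95% interval -0.93 to 0.19; limma adjusted p = 0.813), and the highest that of Lama3, 0.27 ± 0.15 (interval -0.08 to 0.61; limma adjusted p = 0.821). Lamb3 differed by -0.36 (interval -0.97 to 0.26), Itgav by -0.34 (-0.89 to 0.21) and Itgb8 by -0.31 (-0.73 to 0.10). Lama5 differed by 0.16 (-0.50 to 0.81), Itga3 by -0.12 (-0.87 to 0.64), Itgam by 0.01 (-1.01 to 1.04) and Itgb2 by -0.13 (-1.28 to 1.01). The intervals include no difference and, for Itgb2 and Itgam, values over 1 log2 unit in either direction, so likeness of the groups is not shown.

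The spread within groups was uneven in this comparison. Lamc1 was tight in the TJ0113 group, 8.42 ± 0.150 FPKM (SD, n = 3), and wide in the vehicle group, 10.6 ± 4.57. Of the 80 linked genes 0 were called and 3 had an unadjusted p under 0.05, Ccn1, Dag1 and Vcl. Ccn1, a secreted integrin ligand, had means of 185 ± 154 FPKM with vehicle and 42.9 ± 15.2 with TJ0113, a difference of -1.69 ± 0.59 (limma adjusted p = 0.796). Ccn2 and Thbs1, other integrin ligands, differed by -1.37 and -0.78 and were not called either; these genes were picked after their values were seen. Spp1, Fn1 and Npnt differed by -0.06, -0.11 and -0.16, Nid1 by -0.05, and Tln1, Fermt2 and Ptk2 by 0.07, -0.29 and -0.13. No setting and no left-out library gave a called member in this comparison.

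The third comparison set TJ0113 against sham, and it shares its sham libraries with the first. Here 14 of 34 tested members rose (41.2 percent) and 0 fell, against 28.9 percent of all genes called higher and 5.92 percent called lower. The TJ0113 libraries lay above all sham libraries in 27 of 34 members, against 50.5 percent of all genes. The median difference of the members was 0.34. Under median-ratio scaling 10 rose and 2 fell of 32, and with quantile normalization 9 rose and 2 fell of 34; the 2 were Itgb8 and Lama3 in both. Of all genes 17.2 and 15.5 percent were then called higher. The calls of Lamc1, Lamb1, Itga7 and Itgb5 ended under both scalings (adjusted p 0.0574 to 0.283 with median-ratio factors), and that of Itgb3 ended with quantile normalization (adjusted p = 0.184).

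Among the laminin chains 4 of 10 rose (40 percent, against 28.9 percent of all genes). Lama5 differed by 1.35 ± 0.29 (SE; limma adjusted p = 0.00905), Lamb2 by 0.90 ± 0.30 (adjusted p = 0.0190), Lamc1 by 0.51 ± 0.26 (adjusted p = 0.0463) and Lamb1 by 0.39 ± 0.18 (adjusted p = 0.0259). Lama5 was called under each of the 18 other fits (adjusted p 0.00172 to 0.0458). Lama3 lay lower in each TJ0113 library than in sham but was not called, at -0.56 ± 0.15 (limma adjusted p = 0.154), and neither was Lamb3, at 0.24 ± 0.27 (adjusted p = 0.166).

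Of the integrins 10 of 24 rose (41.7 percent, against 28.9 percent of all genes). The leukocyte subunits Itgb2, Itgax, Itgam and Itgb7 differed by 1.87 ± 0.51, 1.58 ± 0.43, 1.27 ± 0.46 and 0.85 ± 0.22 (SE; limma adjusted p = 0.0159, 0.0147, 0.0310 and 0.00997). Summed macrophage markers ran from 228 to 436 FPKM in these libraries against 30.5 to 42.8 in sham. The laminin-binding Itga3, Itgb4 and Itga7 differed by 1.14 ± 0.33, 0.93 ± 0.29 and 0.36 ± 0.15 (limma adjusted p = 0.0159, 0.0167 and 0.0156), and the RGD-binding Itga5, Itgb5 and Itgb3 by 1.29 ± 0.39, 0.42 ± 0.24 and 0.35 ± 0.21 (adjusted p = 0.0191, 0.0497 and 0.0464). Itgb1, at 0.09 ± 0.25, and Itgav, at 0.34 ± 0.25, were not called (limma adjusted p = 0.283 and 0.0802), while the direct test of TJ0113 against vehicle called neither. Itgb8 was below sham in every TJ0113 library, at -0.79 ± 0.18 (limma adjusted p = 0.05, just not under the threshold). Itga6 was not called at 0.24 ± 0.21, nor were Itgb6 at -0.46 ± 0.29 and Itga8 at -0.21 ± 0.25 (adjusted p = 0.0889, 0.616 and 0.886).

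**Figure D5:**
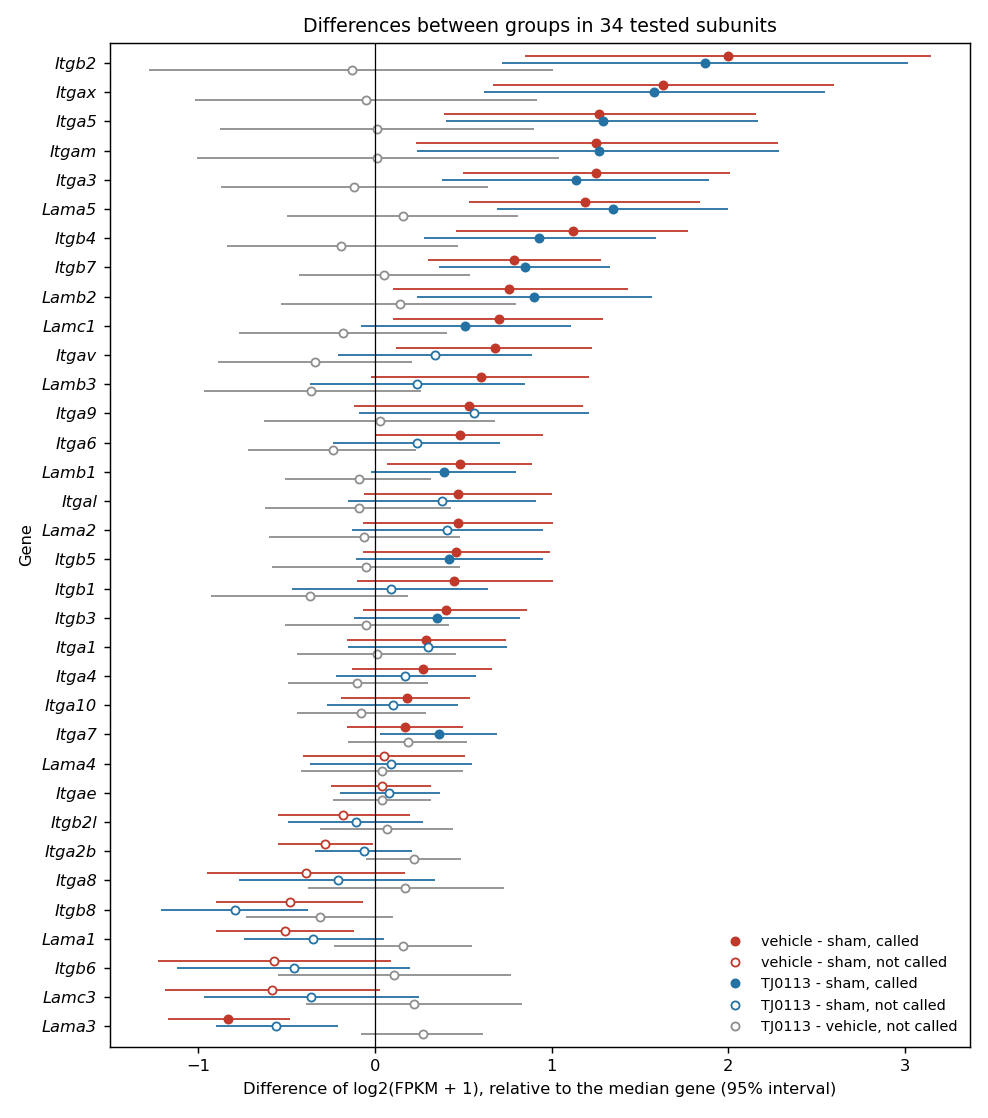
Difference of log2(FPKM + 1) relative to the median gene for the 34 tested subunits in the 3 comparisons, with 95% intervals; filled points are called by limma at an adjusted p under 0.05. Filled points number 25 for vehicle against sham, 14 for TJ0113 against sham and 0 for TJ0113 against vehicle.

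The count of 14 depended on single libraries, as did the share of all genes called higher. Only 2 of the 14 calls, those of Lama5 and Itgb7, were kept without TJ0113 library 3, without sham library 2 or without sham library 3. Those fits called 8.29, 7.02 and 8.14 percent of all genes higher, against 28.9 percent with all 9 libraries. Of the 14 calls, 8 were kept without sham library 1 and 9 without TJ0113 library 1 (adjusted p of lost calls 0.0501 to 0.157). The share of all genes was then 16.2 and 17.7 percent. Without TJ0113 library 2 the calls of Lamc1 and Itgb5 were lost, and without vehicle library 1 those of Lamc1, Itgb3 and Itgb5. Without vehicle library 2, 23 members rose and 1 fell of 35, where between vehicle and sham the same fit gave 27 and 1. That fit called 38.8 and 48.1 percent of all genes higher in these comparisons. The vehicle-against-sham count was as fragile on the sham side: of its 25 calls only that of Itgb7 was kept without sham library 2 and only that of Lama5 without sham library 3. Those fits called 4.75 and 5.67 percent of all genes higher. Sham library 2 also held 29.2 FPKM of the adipocyte markers Adipoq and Plin1, against 0.114 to 0.156 in the other sham libraries, 4.04 and 7.71 in vehicle libraries 1 and 3, 5.54 in TJ0113 library 2 and less than in any sham library in the rest. For vehicle against sham 10 calls were kept without sham library 1, 8 without vehicle library 1, 9 without vehicle library 3, 18 without TJ0113 library 1, and 22 without TJ0113 library 2 or 3. In that order, 15.2, 17.9, 14.7, 25, 29.5 and 31.8 percent of all genes were called higher. Among the linked genes of TJ0113 against sham 48 rose and 4 fell of 80, against 28.9 and 5.92 percent of all genes. Without sham library 2, sham library 3 and TJ0113 library 3, 23, 27 and 25 linked genes were called. Those fits called 7.02, 8.14 and 8.29 percent of all genes higher.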

How the data were processed

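Messenger RNA from mouse renal cortex was measured in 9 libraries, 3 a group, from 1 µg of RNA each, per the labels' protocols. The deposited table gives FPKM, computed by the authors; HISAT2 is named in the submitters' processing notes, while its version, the counting tool, the build, the annotation and the use of strand are not stated in any source used here. FPKM scaled by library total can shift all genes together where a few genes take more of a library. FPKM multiplied by exon length fell on equal steps (98.7 to 98.9 percent of values under 20 fragments lay within 0.02 of a whole or 0.5 step); 1 step was taken as 1 fragment. Symbols and exon lengths came from GENCODE M21 (33893 identifiers named). Groups follow the treatment labels. Limma 3.58.1 in R 4.3.3 was run on log2(FPKM + 1) in 1 fit of the 9 libraries with a variance trend, Benjamini-Hochberg adjustment and a threshold of 0.05, and was tested on simulated data; Python 3.11.15 made the summaries. Same-numbered libraries were not treated as pairs, since not every correlation of their deviations was over 0.1. Every member reported is accounted for by name, with values per library for members called with groups apart and for a set of 14; of each linked list up to 4 genes by smallest p were named, with 7 others. Other genes named with values were picked after their values were seen. The members and lists were chosen with earlier results of these data known. Alternatives were another pseudocount, other filters, scalings, models and each library left out. A gene that the rule also names is not reported here and is in none of the members' counts or figures.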

Additional observations from a re-analysis of the deposited data

How the results depend on the processing

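Between vehicle and sham 25 members were called (24 rose). The count was 7 with no filter on low values, 14 under median-ratio scaling, 13 after quantile normalization, 16 in a fit of the 2 groups alone, and 1 to 28 with 1 library left out. All genes called higher came to 7.17, 15.3, 13.2 and 25.7 percent in these settings and 4.75 to 48.1 percent over left-out libraries. For TJ0113 against sham, with 14 called, the count was 8 with no filter, 23 with the 2 groups alone, and 2 to 24 with 1 library left out. There 7.69, 40.4 and 7.02 to 38.8 percent of all genes were called higher. Linked genes called came to 23 to 68 and 23 to 59 with 1 library left out. Among all genes 4839 rose and 837 fell between vehicle and sham, 2351 and 2487 with median-ratio scaling. With the replicate number as a block the counts were 25, 0 and 18 members for vehicle against sham, TJ0113 against vehicle and TJ0113 against sham, and Itgb5 lost its call in the last (adjusted p = 0.0589); same-numbered vehicle and TJ0113 libraries deviated together at -0.06, 0.50 and 0.56. Directions turned only in differences that were not called. Between vehicle and sham these were Itgae with equal FPKM sums (-0.02), Itgb2l with no filter (0.08) and Lama4 over left-out libraries (-0.08 to 0.22). For TJ0113 against vehicle, Itgam turned with no filter (-0.02), and over left-out libraries Itga3 ranged from -0.41 to 0.11, Itga8 from -0.01 to 0.32, Itgam from -0.40 to 0.34, Itgb2 from -0.66 to 0.44, Itgb6 from -0.12 to 0.31, Lama5 from -0.03 to 0.40, Lamb2 from -0.06 to 0.39 and Lamc1 from -0.44 to 0.01. For TJ0113 against sham, Itga8 turned with no filter (0.02) and Itgb1 with a pseudocount of 0.1 (-0.00), with median-ratio scaling (-0.02) and over left-out libraries (-0.05 to 0.17). The cause was not tested. Of the named members between vehicle and sham, 233 results under other settings kept direction and stayed called or not called as above. Another 52 lost the call, 3 gained one and 2 turned direction. With 1 library left out, 192 results stayed as above, 107 lost the call, 2 gained one and 1 turned direction. Fragments per library limit Itgad, Itga11 and Itga2.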
